A study of Mus musculus with 7 samples.

Results

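Ribosomal protein genes encode the protein parts of the ribosome, and 47 of them were examined for CTCF binding in mouse tissue by ChIP-exo 5.0. The 47 were a given list of names, 29 of the large subunit and 18 of the small subunit, among 34614 protein-coding and long noncoding genes that RefSeq annotates on GRCm38.p6 (mm10). Peaks and peak pairs were assigned to a gene when their centre lay in the gene or within 1 kb of it, a span called the window of the gene. The list was made by name and not by signal, although earlier results of these data were known when it was drawn up.

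The libraries were 1 each of brain, lung, kidney and liver tissue from wildtype adult male mice, and 1 each of 2700000, 270000 and 27000 liver cells, all made with the same CTCF antibody (Millipore). The methods of the study estimate liver cell numbers from the wet weight of tissue, so these numbers are not counts of isolated cells. The labels give crosslinking with 0.3% formaldehyde for every library, whereas the methods of the study give a higher concentration for the tissues, and the labels' extraction protocol names IgG in place of the CTCF antibody. There was 1 library per group, so differences between libraries could not be set against a replicate spread and were not tested. Organs are mixtures of cell types, so that fewer cells with a site and less binding per cell cannot be told apart.

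CTCF is a zinc finger protein that binds a long sequence motif at insulators, at the borders of chromatin domains and at some promoters. In ChIP-exo, lambda exonuclease trims the DNA bound to the immunoprecipitated protein, and a tag marks the base at which it stopped, on the forward strand to one side of the protein and on the reverse strand to the other side. A peak pair, taken here as a forward peak with a reverse peak 10 to 80 bp downstream, is the pattern that a bound protein leaves, although 2 peaks can also fall at such a distance by chance. Ribosomal protein genes are short, are transcribed in nearly all cells, and often hold small nucleolar RNA genes in their introns. Many have processed copies elsewhere in the genome, and the authors kept only reads that aligned uniquely.

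The deposited lists held 1032833 tags in brain and 691479 in lung, and 1635582 in kidney and 527038 in liver, in peaks of 21 bp with at least 2 tags. The libraries of 2700000, 270000 and 27000 cells held 6592538, 640635 and 35594 tags. Between 5.79% and 36.9% of these tags lay in 13 dense bins of 10 kb, the mitochondrial genome or unplaced sequences and were left out, and no window of the 47 genes lay in such a bin. Peaks of fewer than 2 tags are not listed, so a value of 0 is not an absence of tags. Intervals (95%, Wilson) express counting error alone.

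Of the 39 genes with an entry in the RefSeq promoter table, 7 had a peak pair of the 2700000-cell liver library between 250 bases before and 50 after their start, namely Rpl5, Rpl11, Rpl27, Rpl37, Rpl38, Rplp0 and Rps15. Over all 27025 genes with an entry, 5.85% had one. The 250 bases before the start are shown for the 5 of these genes with most tags near a pair, because the pairs lie on them. They are RefSeq sequences of GRCm38.p6, read 5′ to 3′ in the direction of the gene, with 3 spellings of the core of the CTCF motif in capitals, namely AGGGGGC, the variant AGGTGGC and the variant AGAGGGC. They come from chr11:114668330-114668579 on the + strand for Rpl38, chr4:136053394-136053643 on the - strand for Rpl11, chr5:107900278-107900527 on the + strand for Rpl5, chr5:115559217-115559466 on the + strand for Rplp0, and chr11:101441995-101442244 on the + strand for Rpl27.
Rpl38: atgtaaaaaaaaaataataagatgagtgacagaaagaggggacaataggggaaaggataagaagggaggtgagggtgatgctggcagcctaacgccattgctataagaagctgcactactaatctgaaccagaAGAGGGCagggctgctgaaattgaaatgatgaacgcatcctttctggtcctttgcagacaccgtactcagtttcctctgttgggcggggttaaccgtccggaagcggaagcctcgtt
Rpl11: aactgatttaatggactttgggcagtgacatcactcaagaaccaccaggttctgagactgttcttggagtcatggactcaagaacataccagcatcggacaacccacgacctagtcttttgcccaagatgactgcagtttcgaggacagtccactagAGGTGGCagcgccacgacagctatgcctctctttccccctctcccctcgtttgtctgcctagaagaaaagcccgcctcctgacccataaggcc
Rpl5: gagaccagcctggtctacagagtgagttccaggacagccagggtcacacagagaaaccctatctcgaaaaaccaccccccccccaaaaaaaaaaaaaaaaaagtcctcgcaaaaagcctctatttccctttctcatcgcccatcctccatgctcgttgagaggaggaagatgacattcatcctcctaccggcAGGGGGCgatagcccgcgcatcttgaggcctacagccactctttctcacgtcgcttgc
Rplp0: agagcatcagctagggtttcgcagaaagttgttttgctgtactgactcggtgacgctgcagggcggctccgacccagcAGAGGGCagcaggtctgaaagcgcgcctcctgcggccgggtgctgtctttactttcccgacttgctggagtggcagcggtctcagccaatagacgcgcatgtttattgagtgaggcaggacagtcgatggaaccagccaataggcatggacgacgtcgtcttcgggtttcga
Rpl27: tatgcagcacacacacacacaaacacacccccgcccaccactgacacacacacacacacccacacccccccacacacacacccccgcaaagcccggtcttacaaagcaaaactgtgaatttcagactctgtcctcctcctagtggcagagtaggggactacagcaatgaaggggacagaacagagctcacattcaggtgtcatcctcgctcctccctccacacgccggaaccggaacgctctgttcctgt

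The planned CTCF letters lay beside a pair in 2 of these 5 sequences, Rpl5 and Rpl11, and AGAGGGC, a spelling added after these same sequences were read, in Rpl38 and Rplp0. In Rpl5, whose protein binds Mdm2 together with that of Rpl11, AGGGGGC ran from 58 to 52 bases before the start, and the nearest pair centre was 1 bp away. In Rpl38, AGAGGGC ran from 117 to 111 bases before the start, 3 bp from a pair centre, and in Rplp0 the same letters ran from 172 to 166 bases before the start, 5 bp from one. Rpl11 held AGGTGGC from 93 to 87 bases before its start, 13 bp from the nearest pair centre. Rpl27 held none of these letters in this stretch. The stretch shown for Rpl38 lies within the annotated gene, because an earlier start is annotated as well.

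Across the promoters of the 39 genes the planned letters, AGGGGGC and its variant AGGTGGC, searched on both strands of the 300 bases from 250 before to 50 after the start, occurred in 7, or 17.9%, against 17.8% of all promoters. The letters AGAGGGC, which were added after the sequences had been read, occurred in 4, or 10.3%, against 9.51%. Both shares were near the background. Where a pair of the 2700000-cell library lay in the promoter, 3 of 7 starts held the planned letters (a gene can have several starts), against 38.3% of such starts over all genes, and without a pair 4 of 38 starts did, against 14.8%. The letters CCGGAAG, part of the motif of the ETS factor GABP, occurred in 15 promoters, or 38.5%, against 9.93% of all, and AAGATGG, part of the motif of YY1, in 6, or 15.4%, against 7.28%. A match of letters is a description and not a binding site. No promoter sequence was to hand for Rpl3, Rpl7, Rpl8, Rpl30, Rpl32, Rplp1, Rps14 and Rps20.

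CTCF peaks were found at 46 of the 47 ribosomal protein genes in the deepest library and at 25 to 38 of them in the organs. The 46 genes of the 2700000-cell liver library stand against 92.4% of all genes. Brain had a peak at 32 genes (75.6% of all genes), lung at 25 (56.3%), kidney at 38 (83.7%) and liver at 26 (66.8%), while the 270000-cell library had one at 28 (64.0%) and that of 27000 cells at 3 (9.68%). The shares of the 47 lay below those of all genes in each library but that of 2700000 cells. The windows were also shorter, with a median gene length of 3572 bp, from 982 to 9647 bp, against 12757.5 bp over all genes. Over protein-coding genes within that range of length, a background added after the data were seen, the shares were below those of the 47 in each library. In brain 68.1% of the 47 had a peak, against 58.4%, and in lung 53.2%, against 38.7%. In kidney the shares were 80.9% and 70.9%, and in liver 55.3% and 43.8%.

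Peaks were separated by whether they lay 100 bp or less from a pair centre of the 2700000-cell library. Near a pair, brain had a peak at 15 of the 47 genes (29.3% of all genes), lung at 14 (26.1%), kidney at 12 (23.7%), liver at 13 (15.4%), the 2700000-cell library at 26 (48.9%) and that of 270000 cells at 13 (24.0%). The 27000-cell library had none (1.24%). Away from a pair the numbers were 28 in brain (73.0% of all genes) and 20 in lung (50.7%), 36 in kidney (82.7%), 23 in liver (64.3%), 45 in the 2700000-cell library (92.1%), 22 in that of 270000 cells (59.5%) and 3 in that of 27000 cells (8.73%). Near a pair, the shares of the 47 genes were close to those of all genes except in liver, at 27.7%. Over protein-coding genes alone, a background added after the data were seen, the shares near a pair were 35.8% in brain, 32.2% in lung, 29.1% in kidney, 19.1% in liver, 56.6% in the 2700000-cell library and 29.1% in the 270000-cell library, and those of the 47 lay below them except in liver. Over protein-coding genes of like length they were 18.1%, 17.0%, 13.9%, 9.25%, 31.7% and 14.2%. Away from a pair the shares of the 47 lay below those of all genes in each library but that of 2700000 cells. Over protein-coding genes of like length the order was the other one, with the shares of the 47 above in each library. They were 59.6% against 53.6% in brain, 42.6% against 31.2% in lung, 76.6% against 68.6% in kidney and 48.9% against 39.3% in liver. In the libraries of 2700000, 270000 and 27000 cells they were 95.7% against 86.8%, 46.8% against 37.7% and 6.38% against 2.47%. An own pair was found at 26 genes in the 2700000-cell library (48.7% of all genes), 9 in brain (14.3%) and 4 in lung (7.35%), 2 in kidney (6.32%), 0 in liver (2.03%), 3 in the 270000-cell library (6.33%) and 0 in that of 27000 cells (0.0116%). With no flank around the gene, 12 genes had a pair in the 2700000-cell library, against 43.2% of all genes, and 3 in brain, against 11.7%.

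**Figure D1:**
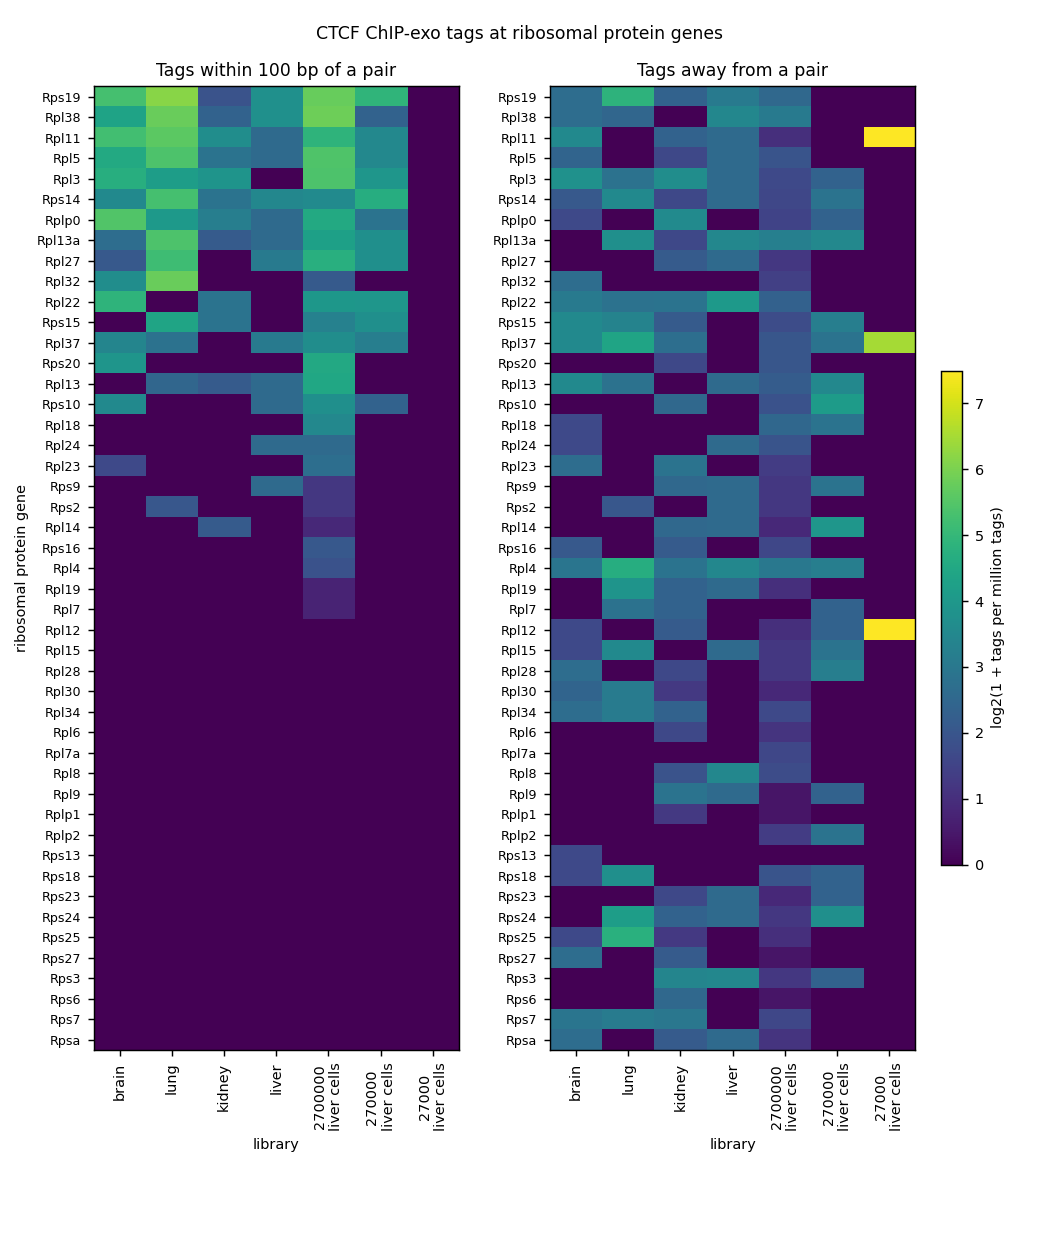
Tags near a pair (left) and away from one (right) at each of the 47 ribosomal protein genes (rows) in each library (columns), as log2(1 + tags per 1000000 kept tags), with genes ordered by the mean near a pair. The 26 genes with a pair fill the top of the left panel, where Rps19, Rpl38, Rpl11, Rpl5 and Rpl3 are brightest, whereas tags away from a pair are scattered over the rows of the right panel and the single bright cells of the 27000-cell library are 2 to 4 tags each.

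Per kb of window, tags were denser at the ribosomal protein genes than over all genes. The 47 windows held 401 tags in brain and 448 in lung, and 336 in kidney and 97 in liver, and 3143, 156 and 10 in the libraries of 2700000, 270000 and 27000 cells. Density was 3.34 times that of all genes in brain (interval 3.03 to 3.68) and 4.93 times in lung (4.50 to 5.41), and 1.92 times in kidney (1.73 to 2.14) and 2.03 times in liver (1.67 to 2.48). The 2700000-cell library gave 4.03 (3.89 to 4.17) and that of 270000 cells 2.57 (2.20 to 3.005). The gene of median density was higher as well, with 0.748 tags per kb in brain against 0.354 for the median of all genes, 0.689 against 0.131 in lung, 1.02 against 0.604 in kidney and 0.262 against 0.140 in liver. In the libraries of 2700000 and 270000 cells the medians were 2.999 against 1.36 and 0.395 against 0.152.

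In the 6 deeper libraries the ratio was higher near a pair than away from one. With tags near a pair counted per kb of the whole window, the density was 8.86 times that of all genes in brain and 9.01 in lung, 7.35 in kidney, 6.77 in liver, 4.82 in the 2700000-cell library and 5.11 in that of 270000 cells. Away from a pair the ratios were 1.56, 2.67, 1.41, 1.44, 2.37 and 1.70 in the same order. The windows of the 47 held 114 pairs of the 2700000-cell library in 277 kb, against 102148 in 1347850 kb over all genes. In that library 2544 tags lay near a pair at the 47 genes and 2562827 over all genes. Its pairs were thus denser per kb at the 47 genes, with no more tags per pair. Pairs per kb and tags per pair were not separated in the ratios of the other libraries. Of the tags in the 47 windows, 64.8% lay near a pair in brain and 65.2% in lung, and 32.7% in kidney and 37.1% in liver, against 24.5%, 35.7%, 8.56% and 11.1% over all genes. In the 270000-cell library the share was 50.6%, against 25.5%. That of the 2700000-cell library, 80.9% against 67.6%, is set by its own pairs. The 27000-cell library went the other way, with a ratio of 0 near a pair and 4.03 away from one (2.19 to 7.42), on 10 tags.

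Short genes have a larger part of their window next to an end, so genes of like length were set beside them. Against the 6230 protein-coding genes whose length lay between those of the shortest and the longest ribosomal protein gene, a comparison added after the data were seen, the density ratio was 1.91 in brain and 2.04 in lung, 1.40 in kidney, 1.45 in liver, 2.12 in the 2700000-cell library and 1.45 in that of 270000 cells. Near a pair it was 2.76, 2.55, 2.18, 1.96, 2.32 and 1.88. Away from a pair it was 1.22, 1.49, 1.19, 1.26, 1.55 and 1.17, and the intervals of liver (0.980 to 1.61) and of 270000 cells (0.940 to 1.47) reached 1. In the 27000-cell library it was 0 near a pair and 3.12 away from one.

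**Figure D2:**
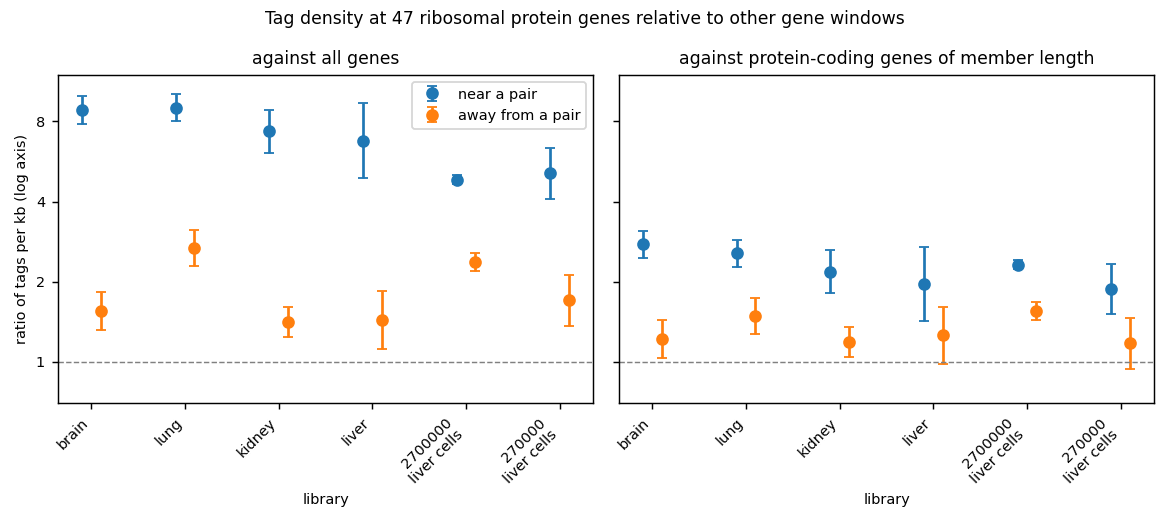
Ratio of tags per kb at the 47 ribosomal protein genes to tags per kb over all genes (left) or over protein-coding genes of like length (right), on a log axis, for tags near a pair (blue) and away from one (orange) in 6 libraries, with 95% counting intervals and a dashed line at 1. The 27000-cell library, with no tag near a pair, is not drawn. Near a pair the points lie between 4.82 and 9.01 on the left and between 1.88 and 2.76 on the right, above the points away from a pair in each of these 6.

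Peaks whose tags all stopped at 1 position made up most of the signal away from pairs in the organs. Away from a pair such peaks held 95.7% of the tags of the 47 windows in brain and 94.2% in lung, and 96.5% in kidney and 80.3% in liver, and 24.0% and 75.3% in the libraries of 2700000 and 270000 cells. Near a pair they held 42.7%, 48.3%, 59.1%, 47.2%, 1.45% and 38.0%. Over all genes the shares away from a pair were 95.6%, 96.8%, 96.3%, 83.2%, 46.2% and 93.9% in the same order, and those near a pair 36.7%, 62.7%, 61.2%, 28.9%, 1.65% and 34.4%. Near a pair the 47 genes thus lay above all genes in brain, liver and the 270000-cell library and below in the other 3 of these libraries. Without these peaks, 96.1% of the remaining tags in brain and 94.4% in lung, and 84.9% in kidney and 61.3% in liver lay near a pair, and 14, 12, 8 and 11 of the 47 genes had a peak, against 29.4%, 17.3%, 25.1% and 30.9% of all genes. Over all genes, too, such peaks held a larger share of the tags away from a pair than of those near one. Leaving them out therefore raises the percentage near a pair there as well, and its value over all genes is not given here.

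The pairs of the 2700000-cell library were joined, where centres lay within 100 bp of the next, into 40 sites in 26 of the genes, and 21 genes had none. Of the 40 sites, 16 lay inside the gene and 24 in the flank, and 12 also lay in the window of another annotated gene. Within 100 bp of the centre they held 4 to 229 tags in the 2700000-cell library, with a median of 37.5, and the strongest pair of a site spanned 24 to 80 bp, with a median of 56 bp. Neighbouring sites of Rpl38 overlap, and tags between them count for both. Brain held tags at 21 of the 40 sites, lung at 17, kidney at 16, liver at 13 and the 270000-cell library at 14, whereas that of 27000 cells held none. A pair of the organ's own within 50 bp was found at 10 sites in brain and 4 in lung, and 2 in kidney and 0 in liver. No share over such sites at all genes is given beside these counts or the numbers of organs below. Whether they are particular to these genes is therefore not known. The organs also differ in depth, from 395304 kept tags in liver to 1443069 in kidney.

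The number of organs with tags was read beside the tags of the site. Of the 17 sites with at least 50 tags in the 2700000-cell library, 8 had tags in 3 or 4 organs, and of the 23 sites with fewer, 1 had. In all, 8 sites had tags in no organ, 12 in 1, 11 in 2, 3 in 3 and 6 in all 4 organs.

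The positions of forward and reverse peaks were read around the 40 sites. In the 2700000-cell library the median forward peak lay 27.5 bp before the centre of the site and the median reverse peak 32.5 bp after it, which the choice of the sites fixes, with before and after in genome coordinates. The organs, which had no part in that choice, gave medians of 23 bp before and 9.5 bp after in brain, 12 and 11 bp in lung, 24 and 24 bp in kidney, and 4 and 47 bp in liver. The 270000-cell library gave 25 and 31 bp. Forward peaks before the centre numbered 20 of 29 in brain and 10 of 13 in lung, and reverse peaks after it 20 of 36 and 14 of 26. Liver rests on 6 forward and 9 reverse peaks and kidney on 16 and 9, too few to set a distance.

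**Figure D3:**
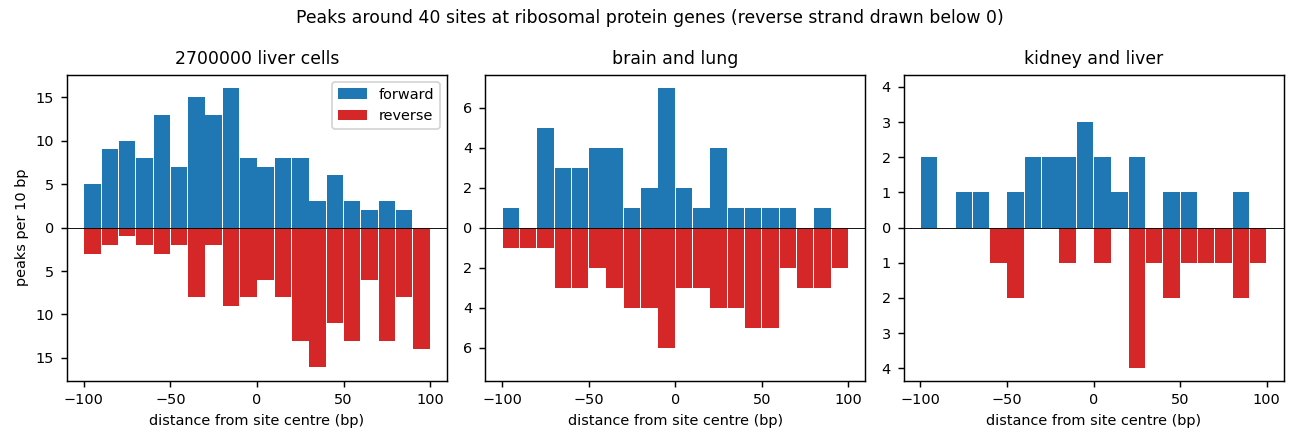
Number of forward peaks (blue, above 0) and reverse peaks (red, drawn below 0) per 10 bp around the centres of the 40 sites, for the 2700000-cell liver library, for brain and lung together, and for kidney and liver together, each with its own vertical scale. In the first panel forward peaks lie mostly before the centre and reverse peaks mostly after it, at medians of 27.5 bp before and 32.5 bp after, as the choice of the sites fixes, whereas in brain and lung the reverse peaks lie on both sides of it.

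Most pairs at these genes lay within 500 bp before the start or over 500 bp past it. Of the 87 pairs of the 2700000-cell library at genes with a known start, 38, or 43.7%, lay within 500 bp before it, against 6.21% of pairs over all genes and 15.7% over genes of like length. Another 37 lay over 500 bp past the start, a smaller part than over all genes (64040 of 79596 pairs) and over genes of like length (6671 of 10043). The 38 pairs fall in 9 sites and are not independent, and of the 32 sites of these genes 16 lay over 500 bp past the start. In the promoter window of the 39 genes, a peak near a pair was found at 7 genes in brain (3.80% of all promoters) and 7 in lung (3.47%), 5 in kidney (2.88%), 4 in liver (1.82%), 8 in the 2700000-cell library (6.60%), 6 in the 270000-cell library (2.76%) and 0 in the 27000-cell library (0.0777%). Peaks away from a pair were found in that window at 1 gene in brain (6.55%) and 1 in lung (3.45%), 3 in kidney (8.26%), 2 in liver (2.93%), 14 in the 2700000-cell library (22.0%), 0 in the 270000-cell library (4.15%) and 1 in the 27000-cell library (0.218%). Brain had an own pair in the promoter of 5 of the 39 genes (1.90%) and lung in that of 3 (1.05%).

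**Figure D4:**
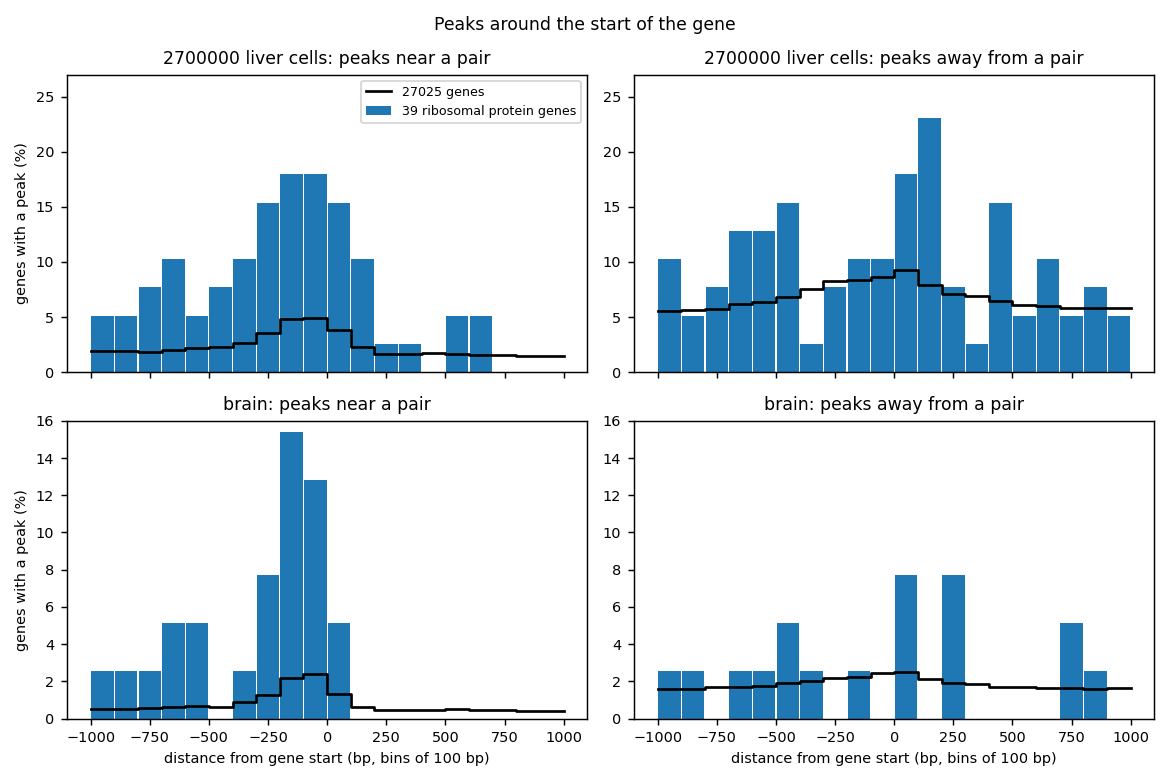
Percentage of the 39 ribosomal protein genes (bars) and of all 27025 genes (line) with a peak in each bin of 100 bp from 1000 bp before to 1000 bp after the gene start, near a pair (left) and away from one (right), in the 2700000-cell liver library (top) and in brain (bottom). Near a pair the bars are highest from 200 to 1 bp before the start. They reach 17.9% (7 of 39 genes) in the top panel and up to 15.4% in brain. The line there is at 4.82% and 4.91% in the top panel and at 2.17% and 2.39% in brain. Away from a pair the bars there are 10.3% in the top panel, close to the line at 8.40% and 8.67%. In brain they are at most 2.56%, with the line at 2.22% and 2.47%. The highest bar away from a pair in the top panel lies 100 to 199 bp after the start, at 23.1% (9 of 39 genes) against 7.93% of all genes.

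Among the promoter sites, those of Rpl5, Rplp0, Rpl11 and Rpl38 held tags in every organ. The site of Rpl5, on chromosome 5 from 107900389 to 107900589, had its centre 39 bp before the start and held 19 tags in brain and 27 in lung, and 9 in kidney and 2 in liver, and 198 and 2 in the libraries of 2700000 and 270000 cells. Brain and lung each had an own pair within 50 bp of it. The letters AGGGGGC shown above lie in this site.

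Rplp0 encodes the scaffold of the ribosomal stalk, which recruits translation factors. Its site on chromosome 5 from 115559217 to 115559417 was centred 150 bp before the start and held 33 tags in brain and 10 in lung, 12 in kidney, 2 in liver, 114 in the 2700000-cell library and 3 in that of 270000 cells. Brain led lung here, the reverse of the order at Rpl5, and both had an own pair.

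The site of Rpl11 on chromosome 4 from 136053377 to 136053577, centred 84 bp before the start, held 23, 22, 10 and 2 tags in brain, lung, kidney and liver, and 104 and 2 in the libraries of 2700000 and 270000 cells. An own pair was found in brain. A second site 716 bp before the start held 9 tags in lung, 7 in kidney, 25 in the 2700000-cell library and none in the other organs.

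Rpl38, which is needed for translation of some Hox mRNAs, had 5 sites, the most of any of the 47 genes, and the highest density in the 2700000-cell library, 58.6 tags per kb of window. Its site on chromosome 11 from 114668349 to 114668549, centred 131 bp before the start, held 6 tags in brain and 21 in lung, 6 in kidney, 3 in liver, 93 in the 2700000-cell library and 0 in that of 270000 cells. The neighbouring site 469 bp before the start held 96 tags in the 2700000-cell library but 0 in brain, lung and kidney and 2 in liver. A further site 541 bp past the end held 72 tags there, 2 in brain and 11 in lung.

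Rpl27, a large subunit gene, had its site on chromosome 11 from 101442038 to 101442238, centred 107 bp before the start. It held 120 tags in the 2700000-cell library, 6 in that of 270000 cells, 23 in lung and 3 each in brain and liver, with 0 in kidney. The own pair was in lung. Lung thus had more tags there than the other 3 organs together.

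The other promoter sites were weaker. That of Rps15, of the small subunit, centred 99 bp before the start, held 48 tags in the 2700000-cell library, 0 in brain and 2 in lung, 9 in kidney, 0 in liver and 6 in the 270000-cell library. That of Rpl37, centred 220 bp before the start and also in the window of Card6, held 42, with 2 in brain, 3 in liver and 0 in lung and kidney. Rpl37 also held AGGGGGC on the other strand, from 122 to 116 bases before the start and 6 bp from a pair centre. A site 340 bp before the start of Rpl13a, of the large subunit, held 5 tags in brain and 25 in lung, and 5 in kidney and 0 in liver, against 52 in the 2700000-cell library.

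The site with most tags of all lay beyond the end of Rps19, a small subunit gene whose mutation causes Diamond-Blackfan anaemia in people. It lay on chromosome 7 from 24890525 to 24890725, centred 814 bp past the gene's end, and held 20 tags in brain and 35 in lung, and 4 in kidney and 5 in liver. The 2700000-cell library held 229 and that of 270000 cells 9. Brain, lung and the 270000-cell library each had an own pair within 50 bp. No other annotated gene window covered it. A second site 624 bp before the start of Rps19 held 15 tags in brain and 9 in lung, none in kidney and liver, and 25 in the 2700000-cell library.

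**Figure D5:**
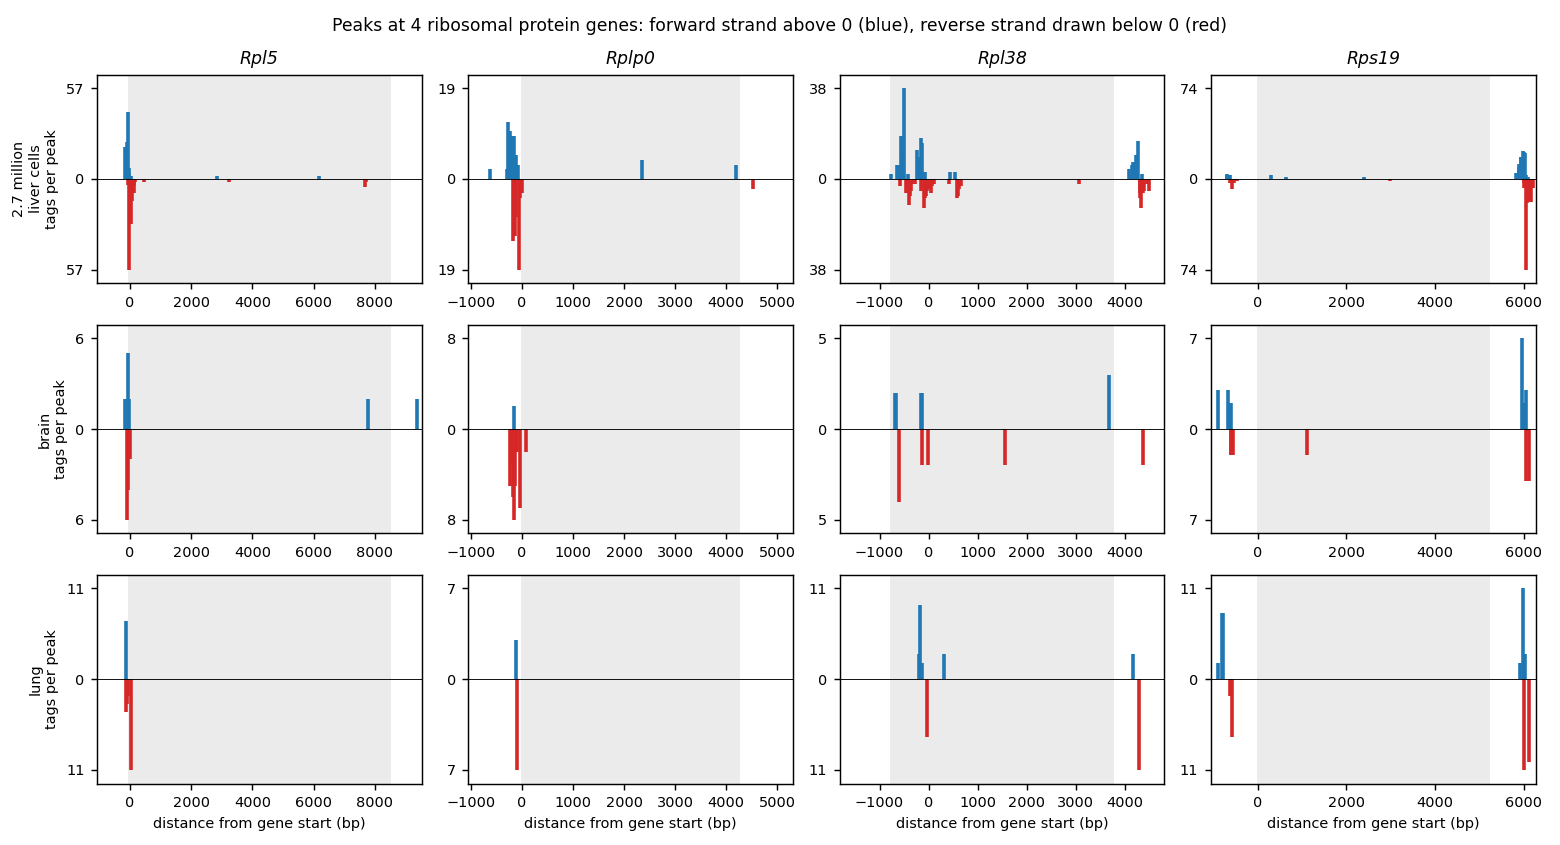
Peaks along Rpl5, Rplp0, Rpl38 and Rps19 (columns) in the 2700000-cell liver library, brain and lung (rows), as tags per peak against the distance from the gene start in bp, forward strand above 0 and reverse strand drawn below it, with the annotated gene in grey and 1 kb on each side. Each panel has its own vertical scale. Peaks gather on both sides of the start of Rpl5, before the start of Rplp0 and Rpl38 and past the end of Rps19. Few lie in the bodies of Rplp0 and Rps19, whereas many peaks of Rpl5 in the 2700000-cell library lie inside the gene. At Rpl38 most peaks before the start lie within the grey gene, because an earlier start is annotated as well, and others lie past its end.

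Several sites had tags in some organs and not in others. Within Rpl3, whose protein reaches towards the peptidyl transferase centre, a site on chromosome 15 spanned 80080703 to 80080903, with 10 tags in brain, 11 in kidney, 0 in lung and liver and 82 in the 2700000-cell library, and brain and kidney had an own pair there. A site 825 bp outside Rpl3 held 6 tags in brain, 4 in kidney and 104 in the 2700000-cell library. Lung had 0 at both, and 2 at another site 46 bp from an end of the gene.

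Rps14, of the small subunit, had a site 272 bp outside its nearer end with 4 tags in brain and 25 in lung, 9 in kidney, 4 in liver and 52 in the 2700000-cell library, and an own pair in kidney. At Rpl32, the site 319 bp from an end, also in the window of Snora7a, held 35 tags in lung and 11 in brain, more in lung than the 20 of the 2700000-cell library, and none in kidney and liver. Site 3 of Rpl22, within the gene, held 20 tags in brain, 7 in kidney, 0 in lung and liver, 38 in the 2700000-cell library and 7 in that of 270000 cells. These counts are small, and no difference between organs was tested.

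Other strong sites of the 2700000-cell library had few organ tags. The site 837 bp past the end of Rpl13 held 118 tags in the 2700000-cell library, 5 in kidney, 2 in liver and 0 in brain and lung. A site within Rps20 held 91, with 5 in brain and 0 in the other organs. The site within Rpl18, also in the window of Fam83e, held 56 and none in any organ.

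The 5 genes with most tags away from a pair, by the mean over libraries per 1000000 kept tags, were Rpl11, Rpl12, Rpl37, Rpl4 and Rps19, of which the first 3 were those with 2 to 4 tags in the 27000-cell library, where 22475 tags were kept in all. Without that library the first 5 were Rpl4, Rps19, Rpl37, Rpl13a and Rpl3, and Rpl11 went from a mean of 28.4 to 3.50 tags away from a pair per 1000000 and Rpl12 from 27.0 to 1.79. Rpl12, of the large subunit, had no site and held 2 tags in brain and 0 in lung, 5 in kidney, 0 in liver, and 6, 2 and 4 in the libraries of 2700000, 270000 and 27000 cells. Rpl4 held 6 tags in brain and 16 in lung, and 9 in kidney and 4 in liver, and 58 and 4 in the libraries of 2700000 and 270000 cells. Rps13, of the small subunit, was the gene without a peak in the 2700000-cell library, and held 2 tags in brain and 0 in the remaining libraries.

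A few genes carried much of the signal in each library. The 5 genes with most tags held 48.4% of the tags of the 47 windows in brain and 45.5% in lung, 35.7% in kidney, 36.1% in liver, 45.7% in the 2700000-cell library and 38.5% in that of 270000 cells. Rps19 was among them in brain, lung, liver and the libraries of 2700000 and 270000 cells, and Rpl11 in brain, kidney and the 2700000-cell library. Over the window, genes ranged from 0 tags to 44 in brain and 64 in lung, and 37 in kidney and 9 in liver, with medians of 3, 4, 6 and 2. All 4 organs had tags at 13 genes, 3 organs at 10, 2 at 17, 1 at 5 and none at 2, against 42.9%, 22.1%, 16.3%, 11.96% and 6.77% of all genes. Near a pair all 4 organs had tags at 7 genes and none at 26, against 9.99% and 63.6% of all genes.

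Large and small subunit genes were set side by side without a test. In the 2700000-cell library 18 of 29 large subunit genes (62.1%) and 8 of 18 small subunit genes (44.4%) had a pair. Of all genes 48.7% had one, and of protein-coding genes 56.3%. The large and small subunit genes held 13.0 and 8.50 tags per kb there. In the 270000-cell library the order was the other one, with 0.522 and 0.632 tags per kb. In brain the densities of large and small subunit genes were 1.65 and 1.10 tags per kb, in lung 1.63 and 1.58, in kidney 1.28 and 1.09, and in liver 0.369 and 0.316. The shares of tags near a pair were 66.2% and 61.3% in brain, 71.5% and 53.8% in lung, 38.9% and 20% in kidney, and 35.4% and 40.6% in liver.

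Related genes were read from lists drawn up with earlier results known. The 32 other cytosolic ribosomal protein genes had a pair at 15 (46.9%) in the 2700000-cell library, against 48.7% of all genes and 56.3% of protein-coding genes. They held 14.8 tags per kb there, above the 11.3 of the 47. Their densities were 1.93 tags per kb in brain and 1.84 in lung, and 1.67 in kidney and 0.401 in liver, beside 1.45, 1.61, 1.21 and 0.350 for the 47. Of 17 translation factors and other genes with oligopyrimidine starts, 11 (64.7%) had a pair, at 3.42 tags per kb. Among 78 mitochondrial ribosomal protein genes 49 (62.8%) had one, at 4.38 tags per kb. The windows of these lists span 297 and 1166 kb, against 277 kb for the 47, so their genes are longer on average. The median gene had 2.09 and 2.94 tags per kb in these lists. It had 2.999 in the 47 and 3.86 in the other cytosolic genes. The share of brain tags near a pair was 55.0% in the other cytosolic genes, 25.8% in the translation factors and 37.6% in the mitochondrial genes, beside 64.8% in the 47. No difference between the lists was tested.

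Few tags lay in small nucleolar RNA genes, and the length these genes cover was not set beside the counts. Of the 47 genes, 19 hold 37 such RNA genes, in which lay 3 tags in brain and 11 in lung, 3 in kidney, 4 in liver, 13 in the 2700000-cell library and 0 in the others. Those at Rpl13a held 8 of the tags in lung and 9 of those in the 2700000-cell library.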

How the data were processed

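CTCF ChIP-exo 5.0 was measured in 7 mouse libraries, 1 per group. The authors aligned paired reads (the submitters' processing notes name BWA 0.7.9a, bcl2fastq 2.16 and mm10, while the methods name other genomes), removed duplicates and alignments that were not unique, and called strand-specific peaks. They deposited for each peak a count of tags, not normalized, and the standard deviation of the tag positions in bp. Reads shared by a ribosomal protein gene and a copy of it are thereby lost.

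From the deposited counts, tags were summed over each gene with 1 kb on each side. Forward and reverse peaks 10 to 80 bp apart were paired one to one, highest sums of tags first, and pairs of 2 libraries were shared within 50 bp. The planned search used the promoter table of GRCm38.p6, which has 39 of the 47 genes. The members and lists were chosen with earlier results of these data known. Named genes were the 5 with most tags near and the 5 with most away from a pair, those with an organ pair at a liver pair, and those without a peak in the 2700000-cell library. The genes Rpl13, Rpl13a, Rpl18, Rps15 and Rps20 were named after their values were seen. The letters AGAGGGC and both comparisons with protein-coding genes were added after the data were seen. Pairing and densities were tested on simulated data. Intervals came from statsmodels 0.14.6, tables from pandas 2.3.3 and numpy 2.4.6, and figures from matplotlib 3.10.9, under Python 3.11.15.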

Additional observations from a re-analysis of the deposited data

How the results depend on the processing

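Depth and the lack of replicates limit these results, since each group has 1 library and the organs held 97 to 448 tags at the 47 genes. No paired analysis was possible because each group has 1 library, and for the same reason no replicate could be left out. The density ratio to all genes stayed above 1 in 6 of 6 libraries under each alternative except peaks of at least 5 tags. There it was above 1 in 5, and liver turned to 0, since none of the 47 genes had such a peak. Of all genes only 0.898% had one in liver, so that this 0 says little. No other value turned to the other side of 1.

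The density ratio, in the order brain, lung, kidney, liver, 2700000 and 270000 cells, became 2.55, 2.97, 1.71, 1.58, 3.05 and 1.93 with a flank of 5 kb, 2.14, 2.49, 1.50, 1.54, 2.22 and 1.58 against genes of like length, and 1.91, 2.04, 1.40, 1.45, 2.12 and 1.45 against protein-coding genes of like length. Without peaks of 1 position it was 6.87, 11.5, 4.51, 2.84, 4.52 and 5.27. With such peaks counted as 1 tag it was 4.34 in brain and 7.88 in lung, 2.21 in kidney, 4.27 for 2700000 cells and 3.39 for 270000 cells. With no flank it was 2.08 in brain, 2.52 in lung, 2.35 for 2700000 cells and 1.17 for 270000 cells. With peaks of at least 5 tags it was 3.94 in brain, 2.33 in kidney, 0 in liver and 4.93 for 2700000 cells. Without the gene with most tags it was 4.34 in lung (Rps19) and 3.62 for 2700000 cells (Rpl38). The cause of these shifts was not tested.

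The percentage of tags near a pair became 96.1% in brain and 94.4% in lung, 84.9% in kidney, 61.3% in liver and 72.1% for 270000 cells without peaks of 1 position. No value over all genes is given beside the percentages of this paragraph. With such peaks counted as 1 tag it was 83.4% in lung, 77.0% in brain, 47.3% in kidney and 60.4% for 270000 cells, and with peaks of at least 5 tags 77.8% in brain, 41.3% in kidney and 60.5% for 270000 cells. Within 200 bp of a pair it was 70.8%, 73.7%, 38.1% and 60.3% in brain, lung, kidney and 270000 cells, and within 50 bp 53.1% in brain and 58.3% in lung.

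Genes with a peak numbered 14 in brain, 17 in kidney, 0 in liver, 22 for 2700000 cells and 7 for 270000 cells with peaks of at least 5 tags, against 35.9%, 51.2%, 0.898%, 43.3% and 24.2% of all genes. Without peaks of 1 position they numbered 14 in brain and 12 in lung, 8 in kidney, 11 in liver and 13 for 270000 cells (29.4%, 17.3%, 25.1%, 30.9% and 25.2% of all genes), and with no flank 15 in lung and 13 for 270000 cells (50.5% and 57.8%). Genes with a pair numbered 3 in brain and 0 in lung, 1 in kidney, 12 for 2700000 cells and 1 for 270000 cells with no flank (11.7%, 5.80%, 5.26%, 43.2% and 5.34%), and 14 in brain and 1 in liver with a flank of 5 kb (19.3% and 2.81%). Of the other values, 21 density ratios and 16 percentages stayed within the 95% interval of the reported value, and 12 numbers of genes with a peak and 11 with a pair were equal to the reported number or within 1.5 times of it.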

Other observations

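Copies of the ribosomal protein genes elsewhere in the genome were set beside other pseudogenes. The annotation names 154 pseudogene copies of 37 of the 47 genes. In the 2700000-cell liver library 59.7% of these copies had a peak, against 60.1% of all 10429 pseudogenes, with 2.08 and 2.23 tags per kb. In brain 20.8% of the copies had a peak, against 27.4% of all pseudogenes, with 0.344 and 0.326 tags per kb, and in kidney 36.4%, against 41.9%, with 0.542 and 0.527 tags per kb. Lung had 0.344 tags per kb at the copies, against 0.214, with a peak at 11.7% and 12.6%. Liver had 0.165 and 0.156 tags per kb, and the 270000-cell library 0.208 at both.

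The order of the 47 genes by tags differed between libraries. As a description over 47 genes of unequal length in libraries of unequal depth, Spearman's rho of the tags per window was 0.716 between brain and the 2700000-cell library, 0.581 between brain and lung, 0.571 between liver and the 2700000-cell library, and 0.294 between brain and liver. Over all genes the same values were 0.789, 0.687, 0.679 and 0.687. Against gene length, rho over the 47 genes lay between 0.205 and 0.457 in the 6 deeper libraries. In the 27000-cell library the 10 tags of the 47 windows lay at Rpl11 and Rpl12 with 4 tags each and Rpl37 with 2, none of them near a pair.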
